A study of Mus musculus with 48 samples.

Results

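Genes that make and package the inhibitory transmitter GABA, and homeobox genes that mark GABAergic lineages, were followed through neuronal differentiation of mouse E14 embryonic stem cells and of 3 derived lines lacking the lysine acetyltransferases KAT6A, KAT6B or both. The set was taken by gene symbol from the raw count table: Gad1, Gad2, Slc32a1, Dlx1, Dlx2, Dlx5, Dlx6, Lhx1 and Lhx5, 9 of 36935 genes. The labels name the genotypes E14 wildtype, KAT6A-/- KO, KAT6B-/- KO and KAT6A-/-; KAT6B-/- dKO, here E14, KAT6A KO, KAT6B KO and double knockout. Each genotype was sequenced at days 0, 2, 6 and 15 with 3 replicates, which gave 16 groups and 48 libraries. Day 0 cells were stem cells kept in serum with the cytokine LIF. After LIF was withdrawn the cells grew as embryoid bodies, received 10 µM all-trans retinoic acid from day 4, and were plated on day 8 on poly-D-lysine and laminin in N2 and later B27 neuronal medium. All 4 genotypes went through these same steps, and E14 carried neither deletion. The labels describe the replicates as independent differentiations but do not say how many clones each knockout line represents, so line and genotype cannot be told apart.

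GABA is made from glutamate by glutamate decarboxylase, whose isoforms GAD67 and GAD65 are encoded by Gad1 and Gad2, and Slc32a1 encodes VGAT, the transporter that loads GABA and glycine into synaptic vesicles. The Dlx genes are homeobox genes arranged in convergently transcribed pairs, Dlx1 with Dlx2 and Dlx5 with Dlx6. They drive GABAergic differentiation in the ventral forebrain and also pattern the jaw, limb and bone, and Dlx5 has been linked to KAT6B in earlier work on the developing forebrain. Lhx1 and Lhx5 are LIM-homeobox genes of inhibitory neurons in the spinal cord, hindbrain and cerebellum, and Lhx1 also marks the early organizer and the developing kidney. KAT6A and KAT6B are the catalytic subunits of histone H3 acetyltransferase complexes.

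In the files' coordinates on GRCm39, 5 of the genes lie on chromosome 2: Gad2 at 22512217 to 22583886 (+ strand), Gad1 at 70383416 to 70432358 (+), Dlx1 at 71358457 to 71364325 (+), Dlx2 at 71373752 to 71377098 (−) and Slc32a1 at 158452687 to 158457668 (+). Dlx6 (6863334 to 6868568, +) and Dlx5 (6877805 to 6882085, −) are neighbours on chromosome 6, Lhx5 is on chromosome 5 (120569764 to 120579288, +) and Lhx1 on chromosome 11 (84409110 to 84416361, −). RefSeq promoter windows on GRCm38.p6, a different build from that of the counts, matched 6 of the 9 genes. The promoters of the 3 genes of GABA synthesis and packaging are shown beside that of Dlx2. In E14 those 3 transcripts were called higher at day 15 than at day 6, and Dlx2 was not. From day 0 to day 6, Gad1 was called lower and Gad2 higher. Each run is the part of the 250 bases before the annotated start that lies outside annotated exons. Capitals mark every match to the E-box CANNTG, bound by basic helix-loop-helix factors, or to TATAAA, the TATA box, on either strand.
Gad1 (chr2:70561879-70562041, + strand): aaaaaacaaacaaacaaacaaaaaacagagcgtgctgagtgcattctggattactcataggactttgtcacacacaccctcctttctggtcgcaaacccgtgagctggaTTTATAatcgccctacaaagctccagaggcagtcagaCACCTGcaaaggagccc
Gad2 (chr2:22622077-22622204, + strand): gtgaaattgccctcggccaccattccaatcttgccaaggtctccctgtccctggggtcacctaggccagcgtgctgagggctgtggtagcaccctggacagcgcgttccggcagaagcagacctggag
Slc32a1 (chr2:158610508-158610757, + strand): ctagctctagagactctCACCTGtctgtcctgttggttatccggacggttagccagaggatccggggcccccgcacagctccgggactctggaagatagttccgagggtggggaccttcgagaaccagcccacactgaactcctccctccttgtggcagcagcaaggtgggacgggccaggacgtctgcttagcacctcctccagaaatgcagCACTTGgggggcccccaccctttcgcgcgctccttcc
Dlx2 (chr2:71546755-71547004, - strand): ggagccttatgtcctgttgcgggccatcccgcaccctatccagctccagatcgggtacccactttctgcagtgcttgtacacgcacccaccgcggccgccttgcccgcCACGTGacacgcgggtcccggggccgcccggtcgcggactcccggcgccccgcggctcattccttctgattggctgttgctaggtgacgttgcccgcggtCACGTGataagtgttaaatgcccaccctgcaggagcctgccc
Both motifs were searched together with TAATTA, a homeodomain core, and AGGTCA, a nuclear receptor half-site, over the whole 250 bases and both strands. TAATTA was in none of the 6 windows and in 4.84% of 32851 RefSeq mouse promoters of the same length. CANNTG occurred once before Gad1, 104 bases from the start, and once before Gad2, 76 bases from the start and outside the stretch shown. It occurred 2 times before Slc32a1 (233 and 37 bases) and 2 times before Dlx2 (142 and 42 bases, both CACGTG), while 66.2% of all promoters held at least 1. For Slc32a1 the RefSeq start was not found in a GENCODE transcript, so its distances hold for the RefSeq start only. TATAAA was found before Gad1 only (141 bases, on the opposite strand; 12.4% of all promoters). AGGTCA was found before Dlx1 only (29 bases, 14% of all promoters). All 250 bases of the Dlx1 window lie in annotated exons, as do 87 of the Gad1 window and 122 of the Gad2 window. The windows were rich in CpG: Slc32a1 held 12, Gad2 13, Gad1 17, Dlx1 22, Dlx2 24 and Lhx1 26, against a median of 6 over all promoters. Of all promoters, 37.8% held 10 or more. The GC content of the 6 windows ran from 58% for Gad1 to 68% for Dlx1, against a median of 52.4%.

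The libraries had totals of 22.5 to 72.23 M counts, and levels below are CPM, a count scaled to a common library total of 1 M after TMM normalization over all 48 libraries. Differences were tested with edgeR's quasi-likelihood test, adjusted by Benjamini-Hochberg over all genes tested, and a gene was called at an adjusted p under 0.05. Kat6a transcripts remained in the KAT6A KO at day 0 (80.2 to 87.5 CPM against 119.5 to 157.4 in E14), and Kat6b transcripts remained in the KAT6B KO (189.5 to 218.4 against 252.1 to 376.2). Gene totals do not show which exons were deleted, so this does not test the protein. The stem cell gene Pou5f1 was 631 to 1101 CPM in E14 at day 0 and 8.41 to 45.8 at day 15. The synaptic gene Snap25 stood at 43.6 to 87.4 CPM in E14 at day 15, and Gfap, an astrocyte gene, at 47.7 to 185 CPM. Other astrocyte genes did not all go with Gfap. Per kilobase of annotated exon, Gfap averaged 30.4 CPM, Aldh1l1 19 and Slc1a3 14.8, but Aqp4 0.16 and S100b 0.00389. In bulk RNA, fewer cells of a type and less RNA per cell cannot be told apart.

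Both decarboxylase genes and the vesicular transporter were expressed mainly at day 15. Gad1 in E14 was 4.53, 6.61 and 3.71 CPM at day 0, 2.34, 3.17 and 9.35 at day 2, 0.92, 2.14 and 1.72 at day 6, and 54.3, 27.6 and 36.9 at day 15. It was therefore present in stem cells, lowest at day 6 and highest at day 15, with no overlap between day 15 and any earlier day. Gad1 fell by 1.60 ± 0.47 (log2, SE) from day 0 to day 6 (edgeR adjusted p = 0.012) and rose by 4.63 ± 0.51 from day 6 to day 15 (adjusted p = 4.9e-06). The fall at day 6 was not called without E14 day 0 replicate 2 (adjusted p = 0.0617) or day 6 replicate 1 (0.0541).

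Gad2 was near the detection limit in stem cells, at 0.244, 0.289 and 0.152 CPM in E14 at day 0, and reached 0.657, 0.53 and 1.39 at day 6 and 23.8, 16.5 and 21.1 at day 15. It rose by 1.95 ± 0.65 (log2) from day 0 to day 6 (edgeR adjusted p = 0.022) and by 4.56 ± 0.55 from day 6 to day 15 (adjusted p = 1.07e-05). The day 6 call was lost without day 0 replicate 1 (adjusted p = 0.0502), day 0 replicate 3 (0.0873) or day 6 replicate 3 (0.107). The log2 ratio of Gad2 to Gad1, each in CPM, lay in E14 between −4.31 and −3.98 at day 0 and between −1.19 and −0.75 at day 15. Slc32a1, which serves both GABA and glycine neurons, stayed between 0.0985 and 1.21 CPM through day 6 in E14 and was 30.5, 16.5 and 21.8 CPM at day 15. Slc32a1 rose by 5.46 ± 0.51 from day 6 to day 15 (adjusted p = 1.19e-06). The log2 ratio of Slc32a1 to Gad1 in the 3 E14 day 15 libraries was −0.83, −0.74 and −0.76, so the transporter and decarboxylase kept nearly the same proportion there.

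The LIM-homeobox genes came up on different days. Lhx1 was 1.51, 1.04 and 2.01 CPM in E14 at day 0, 28.8, 21.2 and 39.0 at day 6, and 42.1, 26.3 and 29.1 at day 15. It rose by 4.30 ± 0.73 (log2) by day 6 (edgeR adjusted p = 0.000296), and the day 15 libraries overlapped those of day 6 (difference 0.14). Lhx5 was under 1.1 CPM in every E14 library through day 6 and 8.05, 5.32 and 5.08 CPM at day 15, a rise of 3.57 ± 0.61 from day 6 (adjusted p = 0.00022). Lhx1 had thus reached its day 15 range by day 6, before Lhx5 and Slc32a1 left theirs.

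At day 2, Lhx1 separated 1 library from the rest. Its E14 values were 2.75, 3.03 and 23.9 CPM, and the same replicate 3 was high for genes of the primitive streak and its derivatives: Mixl1 was 1.05, 0.69 and 9.67 CPM, Cer1 0.32, 0.25 and 10.6, and Gsc 0.94, 0.77 and 5.19. The summed level of the 11 genes of the streak, node and nephric list was 60.0, 57.3 and 151 CPM in these libraries, and of that list only Osr1, a nephric gene, had no count. In the comparison with day 0 Lhx1 was 2.68 ± 0.70 higher (edgeR adjusted p = 0.0166). Without that library the difference was 0.92 (adjusted p = 0.0734), and the call was also lost without any 1 of the day 0 libraries (adjusted p from 0.0509 to 0.0672). Lhx1 at day 2 was 15.9, 9.69 and 7.33 CPM in the KAT6A KO, 2.65, 4.57 and 11 in the KAT6B KO, and 3.51, 2.47 and 9.69 in the double knockout, so uneven levels were seen in all 4 genotypes.

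Dlx genes stayed low throughout. Dlx1 and Dlx6 were under 1 CPM in all 48 libraries, Dlx5 in 46 and Dlx2 in 41, and Dlx6 had no count in 12 libraries. Dlx2 in E14 was 0.244, 0.433 and 1.49 CPM at day 0, 0.0985, 0.145 and 0.074 at day 6, and 0.337, 0.236 and 0.225 at day 15. It fell by 2.76 ± 0.72 (log2) from day 0 to day 6 (edgeR adjusted p = 0.00575), a call that rested on day 0 replicate 3 (adjusted p = 0.0689 without it), and its day 15 level was not called against either day. Against day 0 the day 15 level was called lower without day 0 replicate 1 (−1.81, adjusted p = 0.0241) or day 0 replicate 2 (−1.71, adjusted p = 0.0461). Dlx1 was 0.216, 0.808 and 0.104 CPM in E14 at day 15, Dlx5 was 0.313, 0.185 and 0.850, and Dlx6 was 0.024, 0.0505 and 0.208. None of Dlx1, Dlx5 and Dlx6 passed the count filter over the E14 libraries, so their time course was not tested in the main fit.

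Of the 6 genes tested in E14, 1 was higher at day 2 than at day 0 (Lhx1), against 9.5% of all genes tested. At day 6, 2 were higher than at day 0 (Gad2, Lhx1), against 25.8%, and 2 were lower (Gad1, Dlx2), against 24.2%. At day 15, 5 were higher than at day 0 (Gad1, Gad2, Slc32a1, Lhx1, Lhx5), against 36.5%, and 4 were higher than at day 6 (Lhx1 not), against 27.3%. Passing the filter favours genes that are high on some day, so these counts describe the 6 genes and not all 9.

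**Figure D1:**
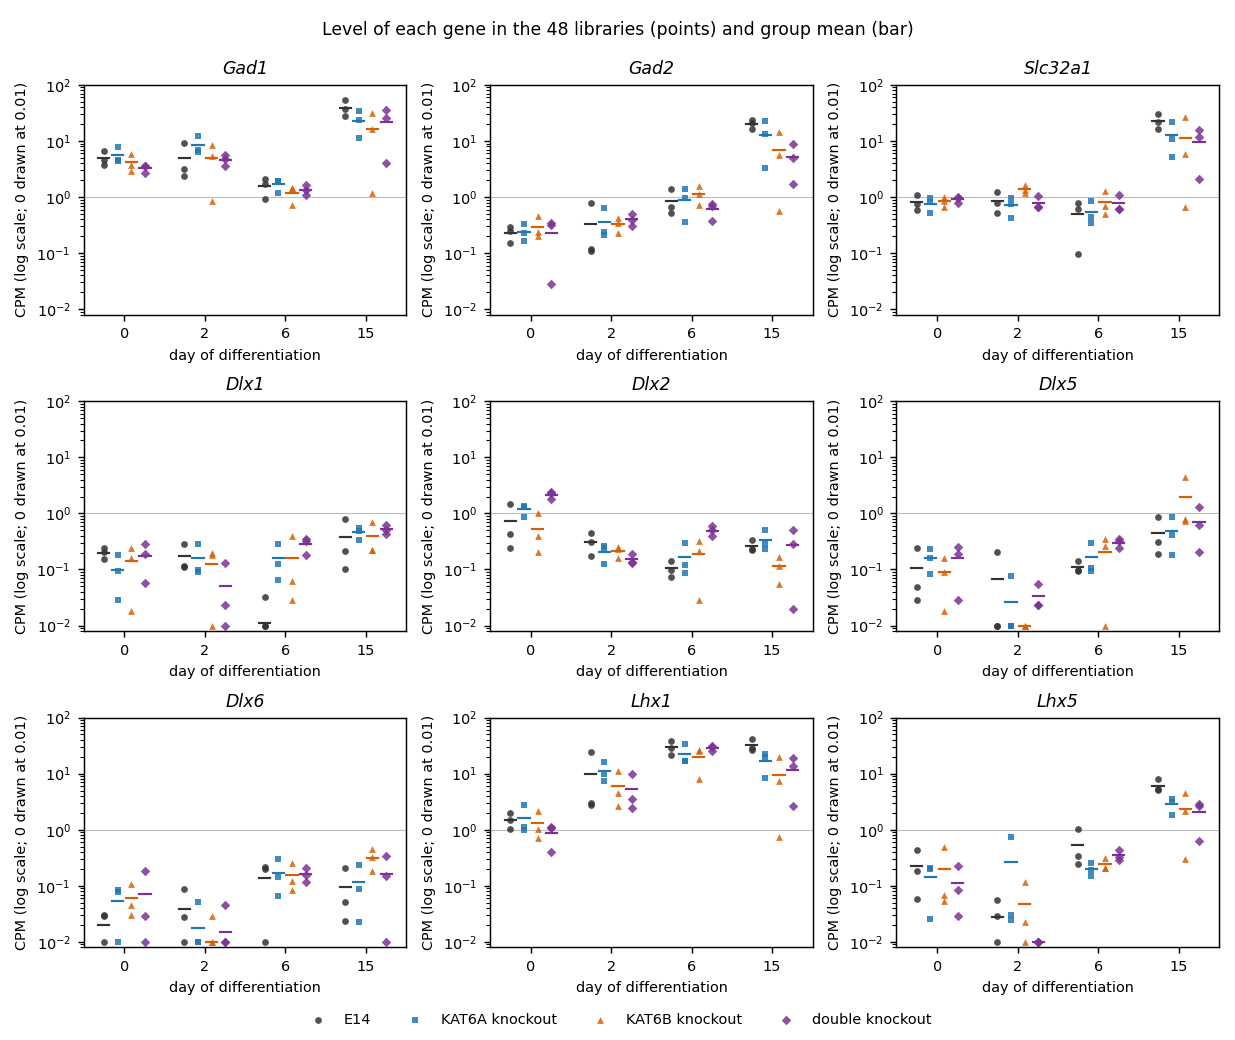
Level of each of the 9 genes (CPM, log axis, libraries with no count drawn at 0.01) against day of differentiation, with 1 point per library, a bar at each group mean (n = 3) and a grey line at 1 CPM. Gad1, Gad2, Slc32a1 and Lhx5 stand highest at day 15, Lhx1 is already near that level at day 6, and nearly all Dlx points lie under 1 CPM.

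Compared per kilobase of annotated exon, the order of levels in E14 at day 15 was Slc32a1 at 8.2 CPM per kb, Lhx1 at 7.98, Gad1 at 5.18, Gad2 at 3.48, Lhx5 at 2.29, Dlx5 at 0.198, Dlx2 at 0.0931, Dlx1 at 0.0697 and Dlx6 at 0.0397. Lengths were the union of all GENCODE exons of a gene on GRCm38, a different build from that of the counts, and the order depends on them. Among the first 5, each neighbouring pair overlapped in its 3 libraries. The Dlx genes overlapped among themselves as well, and every Dlx library lay below every Lhx5 library.

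Other genes of inhibitory transmission rose with them between day 6 and day 15 in E14. Over all genes tested in this comparison, 27.3% were called higher and 27.3% lower. Of 9 genes of GABA turnover and transport, 6 rose and 1 fell by edgeR: Abat, the transaminase that degrades GABA, rose by 3.69 ± 0.20 (log2), and the GABA reuptake transporter Slc6a11 by 5.83 ± 0.60. Slc6a5, the neuronal glycine transporter, went from 0, 0.121 and 0.111 CPM at day 6 to 47.9, 22.5 and 32.4 at day 15. Of 17 GABA receptor subunit genes tested, 13 rose and 2 fell (median 3.75). Gabbr2 of the GABA-B receptor rose by 6.86 ± 0.39 and Gabra2 by 6.02 ± 0.57, while Gabrp, an epithelial subunit, was lower by −6.65 ± 0.83. All 5 genes of the inhibitory postsynapse and chloride balance rose, among them the chloride exporter Slc12a5 by 3.25 ± 0.26 and the scaffold gene Gphn by 1.65 ± 0.19.

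Regional factors moved in both directions. The list counts here stand beside 27.3% of all genes tested called higher and 27.3% called lower. Of 15 midbrain, hindbrain and spinal inhibitory factors tested, 7 rose and 6 fell between day 6 and day 15 (median −0.02). Pax2, a marker of spinal and cerebellar inhibitory neurons, was 16.4, 7.25 and 10.6 CPM at day 6 and 30.9, 32.2 and 28.5 at day 15, and Lbx1, a dorsal spinal factor, rose by 3.90 ± 0.60. Of 13 ventral forebrain factors, 7 rose and 1 fell (median 0.98), among them Gsx1 (5.05 ± 0.67). Nkx2-1, a ventral forebrain gene, was 0.0481 CPM in 1 library at day 15 with no count in the other two. Interneuron subtype genes gave 8 higher and 2 lower of 14 (median 1.10), among them the neuropeptide gene Tac1, at 5.58, 6.80 and 6.14 CPM at day 15. LIM cofactors and other LIM-homeobox genes gave 7 higher and 1 lower of 17 (median 0.72), and Lhx2, a forebrain gene, was the one that fell (−1.62 ± 0.32).

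Both remaining Dlx genes that could be tested, Dlx3 and Dlx4, fell from day 6 to day 15, by 5.22 ± 0.67 and 2.69 ± 0.60 (log2). Dlx3, a gene of surface ectoderm and placenta, was 18.7, 48.4 and 16.3 CPM in E14 at day 6. Glutamatergic genes gave 8 higher and 1 lower of 12 (median 1.69): Slc17a6, the vesicular glutamate transporter of brainstem and spinal neurons, had no count at day 6 and was 30.7, 17.1 and 20.2 CPM at day 15, while Slc17a7 fell by 3.27 ± 0.50. All 12 pan-neuronal genes rose (median 4.84). Astrocyte and oligodendrocyte genes gave 6 higher and 1 lower of 9 (median 1.96), neural crest, limb and bone genes 4 and 3 of 15 (median −0.33), and streak, node and nephric genes 1 and 5 of 10 (median −1.16). Undifferentiated stem cell genes gave 1 and 5 of 7 (median −1.26), and Kat6a, Kat6b and genes of related acetyltransferase complexes 0 and 3 of 7 (median −0.20). Over all 20503 genes tested the median was −0.05, with 27.3% called higher and 27.3% called lower.

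**Figure D2:**
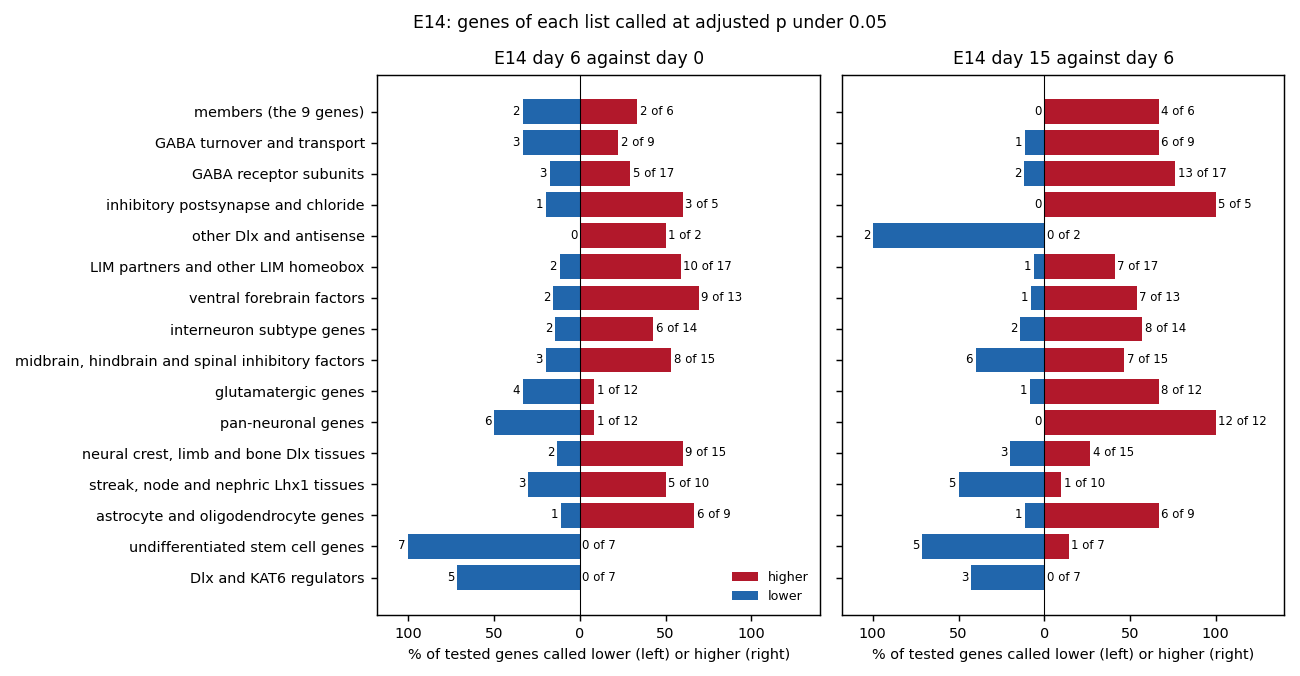
Percent of tested genes in each list called lower (blue, left) or higher (red, right) by edgeR in E14, for day 6 against day 0 and day 15 against day 6, with the numbers called beside the bars. Pan-neuronal genes go from 1 of 12 higher at day 6 to 12 of 12 higher between days 6 and 15, and GABA receptor subunits from 5 to 13 of 17. Over all genes tested, 25.8% were higher in the first comparison and 27.3% in the second.

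None of the 9 genes was called in any knockout at any day. The 12 comparisons with E14 gave 84 tests of these genes, of which 0 were called by edgeR, 7 had an unadjusted p under 0.05, and 0 were called by DESeq2 on the same counts. The lowest adjusted p was 0.172. At days 0 and 2 the filter on low counts left 5 of the 9 genes (Gad1, Gad2, Slc32a1, Dlx2 and Lhx1), and all 9 were tested at days 6 and 15. Over all genes, the share called in either direction at day 0 was 0% in the KAT6A KO, 0.0106% in the KAT6B KO and 2.09% in the double knockout. At day 2 it was 0.0102%, 0% and 1.12% in the same order, at day 6 0%, 0.0292% and 0.0682%, and at day 15 0%, 0.0742% and 3.18%. For the double knockout at day 6, where same-numbered libraries deviated together, a replicate block moved the count over all genes from 14 to 39 and called none of the 9.

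**Figure D3:**
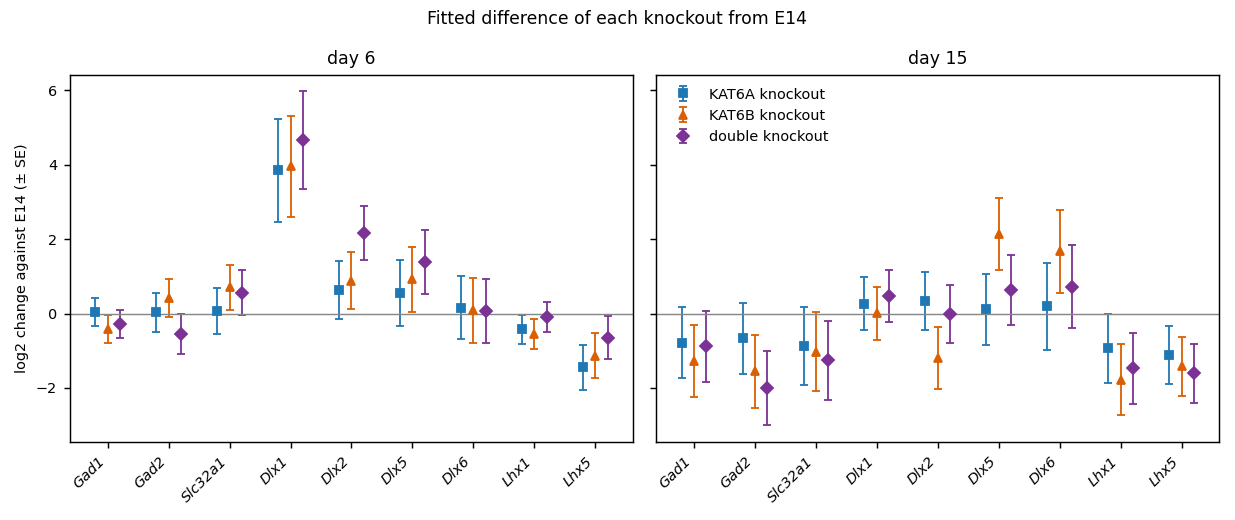
Fitted log2 difference of each knockout from E14 with its standard error for the 9 genes at day 6 and day 15 (edgeR, 3 libraries per group). At day 6 the Dlx1 points stand highest but rest on 1 count in E14, and at day 15 Gad1, Gad2, Slc32a1, Lhx1 and Lhx5 lie below 0 in all 3 knockouts, with no point called.

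In stem cells, Dlx2 in the double knockout had the lowest adjusted p among the 5 genes tested, and it was not called. It was 1.80, 2.31 and 2.41 CPM in the double knockout at day 0 against 0.244, 0.433 and 1.49 in E14, so the groups did not overlap, while the KAT6A KO (1.38, 1.32 and 0.862) and the KAT6B KO (0.395, 0.204 and 1.01) overlapped E14. The difference in the double knockout was 1.51 ± 0.56 on the log2 scale (edgeR adjusted p = 0.172), and 2.58 (adjusted p = 0.055) without E14 replicate 3. All 3 double knockout libraries were above all 3 E14 libraries for this 1 of the 9 genes, close to the share of all genes tested (10.9%). Gad1 had the opposite order, at 3.62, 3.54 and 2.68 CPM in the double knockout, all below E14 (difference −0.63 ± 0.32, adjusted p = 0.309), as for 7.29% of all genes.

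Among the other Dlx genes at day 0, Dlx3 rose and Dlx4 fell in the double knockout. Over all genes tested, 1.29% were called higher and 0.792% lower. Dlx3 was 11.4, 10.5 and 12.8 CPM against 5.31, 4.44 and 5.84 in E14 (1.12 ± 0.20, edgeR adjusted p = 0.0152). Dlx4, which lies beside Dlx3 in the genome, was 0.399, 0.400 and 0.353 CPM against 1.17, 1.56 and 1.00 (−1.73 ± 0.38, adjusted p = 0.0369). Lmx1b, a LIM-homeobox gene, and Nr2f2 rose as well, by 1.56 ± 0.34 and 1.76 ± 0.43, and Glul, glutamine synthetase, fell by 0.86 ± 0.14. In the same comparison 2 of 7 stem cell genes fell, Esrrb (−0.43 ± 0.10, edgeR adjusted p = 0.0437) and Klf4 (−0.66 ± 0.14, adjusted p = 0.0338). Of 12 pan-neuronal genes 1 fell (Stmn2, −0.70 ± 0.11), and of 8 astrocyte and oligodendrocyte genes 1 rose (Mbp, 0.70 ± 0.17). Of 7 acetyltransferase genes 1 fell, Kat6b (−0.64 ± 0.15), itself knocked out in this line. The part of all these genes in the Dlx differences was not tested.

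At day 6, Dlx1 was almost absent from E14 and detected in each knockout. E14 had counts of 1, 0 and 0, the KAT6A KO 12, 3 and 6, the KAT6B KO 1, 3 and 19, and the double knockout 14, 16 and 12. In CPM the double knockout was 0.323, 0.350 and 0.179 and the KAT6A KO 0.284, 0.0645 and 0.126, both above every E14 library, the highest of which was 0.0328. The ratio of the double knockout's summed level to that of E14 was 33.9, with a 95% interval for counting error alone of 5.77 to 1370. The corresponding ratios were 19.4 (3.12 to 803) for the KAT6A KO and 22 (3.58 to 908) for the KAT6B KO. The edgeR adjusted p was 0.287 in the double knockout, 0.809 in the KAT6A KO and 0.251 in the KAT6B KO.

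Dlx2 and Dlx5 were ordered the same way in the double knockout at day 6. Dlx2 was 0.508, 0.591 and 0.388 CPM against 0.0985, 0.145 and 0.074 in E14 (2.17 ± 0.73, edgeR adjusted p = 0.408), and Dlx5 was 0.323, 0.241 and 0.343 against 0.0985, 0.145 and 0.0925 (1.38 ± 0.86, adjusted p = 0.743). Dlx6, the partner of Dlx5, was 0.208, 0.153 and 0.119 CPM and overlapped E14 (0, 0.217 and 0.204). In all, 3 of the 9 genes in the double knockout lay wholly above E14 at day 6, as did 7.01% of all genes tested, and 1 (Dlx1) in the KAT6A KO, as did 6.57%. Gad1, Gad2, Slc32a1 and Lhx1 overlapped E14 in every knockout at day 6. Lhx5 in the KAT6A KO, at 0.189, 0.258 and 0.147 CPM against 1.05, 0.337 and 0.241, gave −1.44 ± 0.61 (adjusted p = 0.809).

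At day 15, the GABA genes and both LIM-homeobox genes were lower on average in all 3 knockouts than in E14, with wide scatter between libraries. Gad1 was 54.3, 27.6 and 36.9 CPM in E14, 11.4, 23.7 and 34.5 in the KAT6A KO, 31.2, 1.2 and 16.7 in the KAT6B KO, and 25.7, 35.6 and 3.99 in the double knockout. In each knockout at least 1 library overlapped E14 and another was far below, KAT6B KO replicate 2 being the lowest of all 12. Gad2 was 23.8, 16.5 and 21.1 CPM in E14, 3.24, 13.1 and 22.5 in the KAT6A KO, 14.5, 0.554 and 5.75 in the KAT6B KO and 4.95, 8.75 and 1.74 in the double knockout. The last 2 groups lay wholly below E14, with fitted differences of −1.56 ± 0.98 (edgeR adjusted p = 0.384) and −2.0 ± 0.99 (adjusted p = 0.238). The double knockout difference was −2.63 (adjusted p = 0.244) without its replicate 2.

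Slc32a1 at day 15 was 5.10, 10.7 and 21.9 CPM in the KAT6A KO, 27, 0.669 and 5.91 in the KAT6B KO, and 11.6, 15.5 and 2.10 in the double knockout, against 30.5, 16.5 and 21.8 in E14. The double knockout alone lay wholly below E14 (−1.26 ± 1.06, edgeR adjusted p = 0.474). Lhx1 was 8.45, 19.9 and 22.9 CPM in the KAT6A KO, 20.2, 0.738 and 7.37 in the KAT6B KO, and 13.6, 19.1 and 2.69 in the double knockout, all below the lowest E14 library at 26.3. Its differences were −0.94 ± 0.93, −1.78 ± 0.95 and −1.48 ± 0.94 in that order (adjusted p = 0.676, 0.316 and 0.349). Lhx5 was also below E14 in every knockout library, at 1.83, 3.16 and 3.59 CPM, 4.44, 0.300 and 2.17, and 2.86, 2.64 and 0.633, against 5.08 and above in E14. The fitted differences for Lhx5 were −1.11 ± 0.78, −1.42 ± 0.79 and −1.60 ± 0.79 (adjusted p = 0.585, 0.33 and 0.237). Without KAT6B KO replicate 1, the differences of that knockout were −2.72 for Gad2, −3.02 for Lhx1 and −2.33 for Lhx5 (edgeR adjusted p = 0.119, 0.0851 and 0.0916).

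Counted together, 2 of the 9 genes lay wholly below E14 at day 15 in the KAT6A KO (Lhx1, Lhx5), as did 12.8% of all genes tested. In the KAT6B KO it was 4 (Gad2, Dlx2, Lhx1, Lhx5), against 15.1%, and in the double knockout 4 (Gad2, Slc32a1, Lhx1, Lhx5), against 20.3%. The median fitted difference of the 9 genes was −0.66, −1.19 and −0.88 in the KAT6A KO, the KAT6B KO and the double knockout, beside 0.01, 0.05 and 0.01 over all genes tested. These 3 comparisons share the E14 libraries.

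Pan-neuronal transcripts were scattered in the same libraries. The summed CPM of 12 pan-neuronal genes was 3887, 2226 and 2810 in E14, 769.9, 1832 and 2589 in the KAT6A KO, 1874, 380.9 and 843.9 in the KAT6B KO, and 1682, 1583 and 383.2 in the double knockout. KAT6B KO replicate 2 and double knockout replicate 3, lowest for these genes, were also lowest within their groups for Gad1, Gad2, Slc32a1, Lhx1 and Lhx5. Over the 12 day 15 libraries, Pearson's r between a gene's log2 CPM and the pan-neuronal mean was 0.978 for Gad1, 0.97 for Gad2, 0.98 for Slc32a1, 0.99 for Lhx1 and 0.981 for Lhx5. The corresponding Spearman rho was 0.881, 0.972, 0.923, 0.979 and 0.965. Without those 2 libraries, the farthest from the median, r was 0.933, 0.901, 0.917, 0.97 and 0.916. Dlx1 (−0.382), Dlx2 (0.469), Dlx5 (−0.219) and Dlx6 (−0.562) did not follow that order. These correlations describe libraries that share genotype and depth and were not tested.

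**Figure D4:**
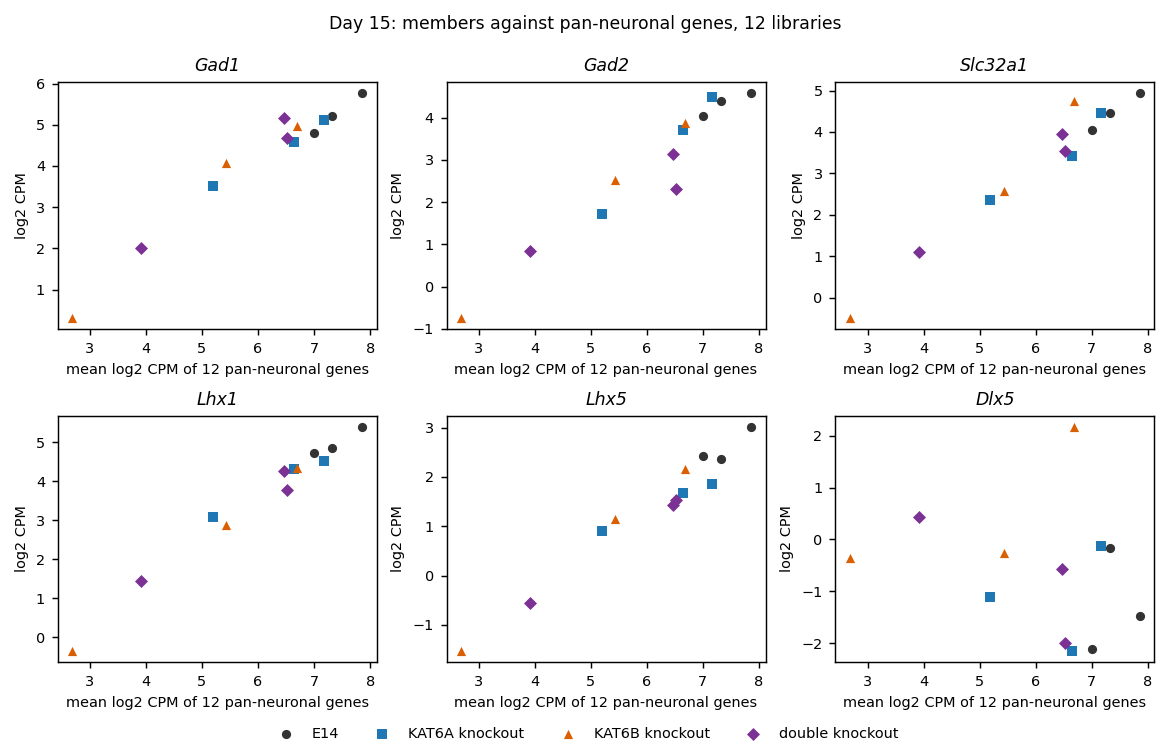
Log2 CPM of Gad1, Gad2, Slc32a1, Lhx1, Lhx5 and Dlx5 against the mean log2 CPM of 12 pan-neuronal genes in the 12 day 15 libraries, 1 point per library and 1 symbol per genotype. The first 5 genes rise along a narrow band in which the knockout points run on from those of E14, while Dlx5 shows no such band and has its highest point in a KAT6B KO library.

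Taken relative to the pan-neuronal mean of the same library, the GABA genes gave smaller differences between knockouts and E14. The difference from E14 at day 15 in the KAT6A KO was 0.21 for Gad1, 0.03 for Gad2 and 0.00 for Slc32a1 (log2). In the KAT6B KO the values were 0.32, 0.00 and 0.27, and in the double knockout 0.46, −0.48 and 0.15. Lhx1 gave 0.04, −0.24 and −0.07 and Lhx5 −0.06, 0.45 and −0.04 across the KAT6A KO, the KAT6B KO and the double knockout. The Dlx genes, which did not track neuronal genes, were on average above E14 by this measure in every knockout. Across the KAT6A KO, the KAT6B KO and the double knockout, Dlx5 gave 1.18, 4.23 and 2.3 and Dlx6 1.26, 4.00 and 2.1. Dlx1 gave 1.68, 2.7 and 2.57 and Dlx2 1.32, 1.44 and 1.33. The reference was itself lower there: the median fitted difference of the 12 pan-neuronal genes was −0.91, −1.7 and −1.46 in that order. A gene that does not follow the reference rises relative to it when the reference falls. The share of this in the Dlx values was not tested. The smallest two-sided p of the exact permutation test was 0.1, the smallest that 3 libraries against 3 allow, and 0.45 after adjustment over 27 tests. With the summed pan-neuronal CPM as reference, 7 of the 27 differences took the other sign, among them Gad1 (−0.36), Gad2 (−0.68), Slc32a1 (−0.42) and Lhx5 (−0.23) in the KAT6B KO.

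The log2 ratio of Gad2 to Gad1 at day 15 was −2.36, −2.02 and −1.18 in the double knockout against −1.19, −0.75 and −0.80 in E14, with 1 double knockout library inside the E14 range. The ratio was −1.80, −0.85 and −0.61 in the KAT6A KO and −1.10, −1.05 and −1.53 in the KAT6B KO, and no test was made. Slc32a1 against Gad1 was −1.15, −1.20 and −0.92 in the double knockout, all below E14 at −0.83, −0.74 and −0.76. That ratio was −1.16, −1.14 and −0.66 in the KAT6A KO and −0.21, −0.80 and −1.49 in the KAT6B KO, and it was not tested. Lhx5 against Lhx1 lay between −2.51 and −2.30 in E14 and between −2.84 and −1.18 over the 9 knockout libraries.

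Dlx5 was high in 1 library only. It was 4.46 CPM in KAT6B KO replicate 1 at day 15 against 0.738 and 0.786 in the other two, 0.313, 0.185 and 0.850 in E14, 0.419, 0.178 and 0.865 in the KAT6A KO and 0.204, 0.63 and 1.31 in the double knockout. The fitted difference of the KAT6B KO was 2.14 ± 0.96 (edgeR adjusted p = 0.246), and 0.72 (adjusted p = 0.602) without that library. Dlx6 in the KAT6B KO was 0.449, 0.323 and 0.187 CPM (1.67 ± 1.11, adjusted p = 0.405), and Dlx6os1, the antisense transcript over Dlx6, was 1.24, 0.138 and 0.0749 CPM. The strand setting of the counting is not given in the sources used here, so reads of Dlx6 and Dlx6os1 cannot be told apart.

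The same replicate was high for Prrx1, Twist1 and Osr1. Prrx1, a limb and craniofacial mesenchyme gene, was 381.5, 75.3 and 64.7 CPM in the KAT6B KO at day 15 against 46.3, 35.1 and 131.3 in E14, Twist1 was 42.8, 14.2 and 16.2 against 8.27, 8.84 and 18.9, and Osr1 was 94.7, 19.0 and 18.5 against 4.42, 3.48 and 9.14. The summed level of the 15 neural crest, limb and bone genes was 539.7, 139.2 and 144.8 CPM in the KAT6B KO and 162.7, 138.9 and 291.4 in E14, and every gene of that list had counts in both groups. Without Prrx1 the other 14 genes summed to 158.3, 63.95 and 80.06 CPM in the KAT6B KO and 116.4, 103.7 and 160.1 in E14, so KAT6B KO replicate 1 lay inside the E14 range. Its part in the Dlx5 level was not tested. Across all 48 libraries the genes most like Dlx5 were Lum, a proteoglycan of connective tissue (Pearson's r 0.84), Cpz (0.836) and Vasn (0.825). Without that library the number of genes called in the KAT6B KO at day 15 went from 15 to 1946, and none of the 9 was among them.

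Patterns most alike to the other members, over the 48 libraries and among genes averaging at least 1 CPM, separated the Dlx genes from the rest. The nearest genes to Gad1 included Dlgap1 (0.907) and Cplx1 (0.90), both of the synapse. Gad2 was nearest to Nap1l3 (0.948), Tenm2 (0.946) and Gria2 (0.944). Slc32a1 was nearest to the GABA-B receptor gene Gabbr2 (0.952), Pcdha7 (0.95) and Tmem130 (0.947). Lhx5 was nearest to Lrrtm3 (0.926), Nsg1 (0.914) and Reep1 (0.91). Lhx1 was nearest to its neighbouring noncoding transcript Lhx1os (0.952), then Stc1 (0.893) and Ret (0.883), a receptor of neurons and kidney buds. For Dlx1, Dlx2 and Dlx6 the highest values were 0.655 (Gm37305), 0.755 (1110002J07Rik) and 0.739 (Tead3). Few counts limit how high r can be for these genes. Dlx1 and Dlx6 were under 1 CPM in all 48 libraries and Dlx2 in 41. Within the 12 day 15 libraries, Gad1 and Slc32a1 had r = 0.979, Gad1 and Gad2 0.943, and Dlx5 and Dlx6 0.829. All of these are descriptions over libraries that share day and depth.

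**Figure D5:**
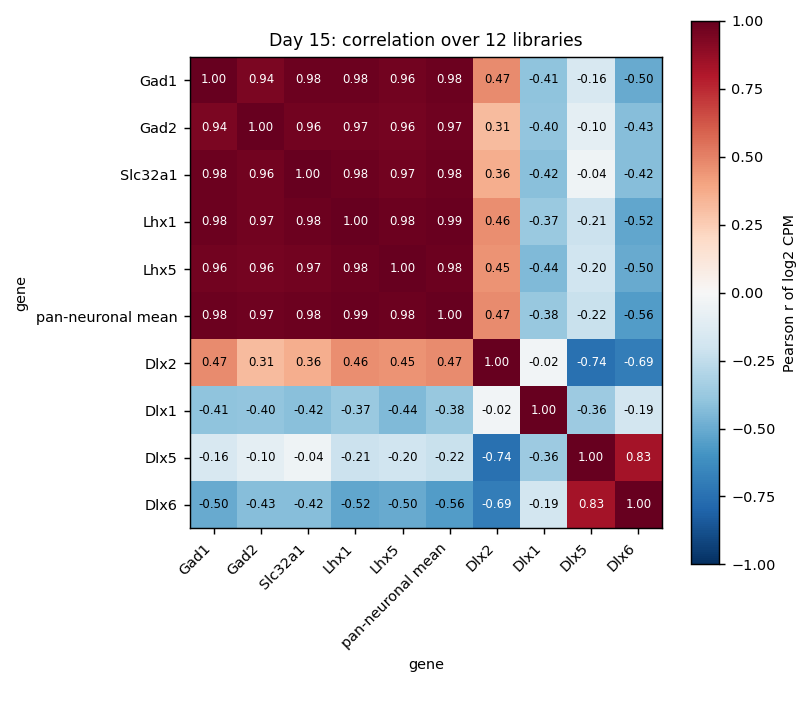
Pearson's r of log2 CPM between each pair of the 9 genes and the pan-neuronal mean over the 12 day 15 libraries (colour from blue at −1 to red at 1, value in each cell). Gad1, Gad2, Slc32a1, Lhx1, Lhx5 and the pan-neuronal mean form 1 block, and Dlx5 and Dlx6 pair at 0.83. Dlx2 runs opposite to that pair (−0.74 with Dlx5, −0.69 with Dlx6), and Dlx1 is negative with every other entry.

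No difference between knockouts was called for any of the 9 genes. Over 6 comparisons at days 6 and 15 edgeR called 0 of 54 tests, DESeq2 0, and 1 had an unadjusted p under 0.05. The share of all genes called at day 6 was 0.00974% for the double knockout against the KAT6A KO, 0% against the KAT6B KO and 0.00974% between the single knockouts. At day 15 it was 0.00494%, 0% and 0%. The test of the knockout effect at day 15 minus that at day 6 also called 0 of 27 by edgeR and 0 by DESeq2, with 3 at an unadjusted p under 0.05, against 0%, 0.0229% and 0.234% of all genes in the KAT6A KO, the KAT6B KO and the double knockout. The lowest adjusted p was 0.21, for Dlx1 in the double knockout (−4.23), where the E14 level at day 6 was 1 count.

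Related genes did reach the threshold in the double knockout at day 15, all but 1 of them lower. Over all genes tested, 1.86% were called higher and 1.32% lower. Of 17 LIM genes 1 fell, Lmx1b (2.27, 2.60 and 2.04 CPM against 20.9, 13.2 and 13.9 in E14; −2.81 ± 0.34, edgeR adjusted p = 0.0182), which also fell in the KAT6B KO (−2.83 ± 0.34). Of 13 ventral forebrain factors 1 fell (median −1.18). Of 13 midbrain, hindbrain and spinal factors 1 fell, Sall3 (−3.90 ± 0.74), of 14 interneuron subtype genes 1, the neuropeptide gene Npy (0, 0.015 and 0.0198 CPM against 2.07, 1.31 and 2.31), and of 13 glutamatergic genes 2, Tlx3 (−4.47 ± 0.65) and Neurod1 (−2.22 ± 0.49). Tlx3 is a selector of glutamatergic over GABAergic fate in the dorsal spinal cord. Of 9 astrocyte and oligodendrocyte genes 3 fell (Aqp4, Slc1a3 and Aldh1l1), as did 1 of 5 inhibitory postsynapse and chloride genes (Slc12a2, the chloride importer, −0.79 ± 0.15). Of 14 neural crest, limb and bone genes 1 fell (Tfap2a). Of 7 acetyltransferase genes 1 fell, Kat6a, itself knocked out in this line. Klf4 rose (1.35 ± 0.32), 1 of 7 stem cell genes. In E14 Klf4 stood at 47.3 CPM per kb at day 0 and 48.7 at day 15. At day 15 the 7 genes had a mean log2 CPM of 3.97, 3.53 and 4.38 in the double knockout and 3.62, 5.27 and 4.43 in E14. Their summed CPM was 470.6, 440.2 and 525.7 against 225.6, 370.2 and 254.1.

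In the same comparison none of the 9 GABA turnover genes (median −1.01), 15 GABA receptor subunits (median −1.30), 12 pan-neuronal genes (median −1.46), 3 other Dlx and antisense genes (median 0.95) or 7 streak, node and nephric genes (median −0.67) was called by edgeR. The number of day 15 calls over all genes went from 643 to between 0 and 102 when any 1 of the 6 libraries was left out, and to 0 with a replicate block.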

How the data were processed

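RNA was extracted with TriPure, depleted of ribosomal RNA, and sequenced from directional paired-end libraries on a NovaSeq, per the labels' protocols. The authors deposited raw counts per gene, with HISAT2 and GRCm39 named in the submitters' processing notes; for the versions, the counting tool, its strand setting and the annotation the entry is: not given in the sources used here. Of 36983 rows, 48 repeated an identifier and were dropped.

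The counts were fitted with edgeR 4.0.16 (limma 3.58.1, R 4.3.3): genes with at least 10 counts in enough libraries of a group and 15 in all, TMM, robust quasi-likelihood fits, and Benjamini-Hochberg adjustment. One fit covered the 12 E14 libraries, 1 each day's 12 libraries, and 1 the 24 libraries of days 6 and 15. Standard errors are the fitted difference over the square root of F. Log2 CPM used a prior count of 2. The biological coefficient of variation was 19.3% at day 0, 21% at day 2, 24.6% at day 6 and 37.8% at day 15. Genes with few counts could still be less precise earlier. The SE of Dlx1 in the double knockout against E14 was 1.31 at day 6 and 0.70 at day 15. P-values measure the spread between these libraries. No libraries were duplicates: within groups, the chi-square per degree of freedom between counts was at least 6.63. The fits were also run on simulated counts with 1 common spread per fit, so that run does not cover outlying libraries.

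Alternatives were relative log expression scaling, no filter, DESeq2 1.42.0, a replicate block, fits of 2 groups, each library left out, and the summed pan-neuronal reference. Same-numbered libraries were checked for shared deviations, since the labels do not say that a number marks an experiment: all 3 correlations exceeded 0.1 in 2 of 22 comparisons, the double knockout against E14 and against the KAT6A KO at day 6 (lowest r 0.116 and 0.178). The 9 genes and the 15 gene lists were chosen with earlier results of these data known. Named from each list were up to 4 called genes of largest change, with a few defining genes added after their values were seen, and for each of the 9 the 3 genes of highest r. Promoter windows came from RefSeq (GRCm38.p6). Some genes of these lists are not reported here.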

Additional observations from a re-analysis of the deposited data

Results flagged for a closer look

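For 4 related genes the knockout effect at day 15 differed from that at day 6 by a direct test of the difference (edgeR interaction, Benjamini-Hochberg over all genes), and none of the 9 genes did. Lmx1b, a LIM-homeobox gene of hindbrain and dorsal spinal neurons, gave −2.41 ± 0.38 (log2) in the KAT6B KO (adjusted p = 0.0246), with an effect of −0.42 at day 6 and −2.83 at day 15. In the double knockout Lmx1b gave −3.36 ± 0.38 (adjusted p = 0.000594; 0.54 at day 6, −2.81 at day 15). Tlx3, a glutamatergic selector of the dorsal spinal cord, gave −5.04 ± 0.88 (adjusted p = 0.0236; 0.56 and −4.47). The astrocyte genes Aqp4 and Aldh1l1 gave −5.73 ± 1.14 (adjusted p = 0.0414; 0.96 and −4.74) and −3.27 ± 0.62 (adjusted p = 0.0358; 0.61 and −2.64). The all-gene count behind the KAT6B KO value, 5, ranged from 0 to 920 when 1 library was left out, so the Lmx1b call is lost where it is 0. The all-gene count behind the double knockout values, 51, ranged from 1 to 67 when 1 library was left out. The summed pan-neuronal level also differed between these day 15 libraries, and its part in the differences was not tested.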

How the results depend on the processing

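Of the 9 genes, 0 were called in every knockout comparison under all the alternatives run. The number called in E14 at day 2 against day 0 was 1, and 0 with no filter on low counts, 2 with DESeq2, 2 with a replicate block (Lhx5 added) and 0 to 1 with 1 library left out. At day 6 against day 0 it was 4 (3 to 5 with 1 library left out), at day 15 against day 0 5 (5 to 6) and against day 6 4 (4 to 5). With no filter on low counts, where Dlx1, Dlx5 and Dlx6 were also tested, the numbers were 5, 5 and 5 in that order. Over all comparisons, 74 of 189 differences of single genes changed sign under at least 1 alternative, the largest of them 1.16 (log2) in size, and 0 of the 14 called ones did. The replicate block changed no other call of the 9 genes. Depth limits the Dlx genes most, which held few counts in most libraries.

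Counts over all genes moved far more. With DESeq2 the KAT6A KO, KAT6B KO and double knockout against E14 gave 7, 218 and 1125 calls at day 0 (edgeR 0, 2 and 395), 31, 23 and 658 at day 2 (2, 0 and 220), 3, 552 and 238 at day 6 (0, 6 and 14) and 333, 1839 and 2724 at day 15 (0, 15 and 643). Its counts for the day 15 effect minus the day 6 effect were 23, 695 and 467 (0, 5 and 51), and between knockouts 11 to 649 at day 6 (0 to 2) and 34 to 77 at day 15 (0 to 1). A replicate block gave 26 and 605 for the KAT6B KO and double knockout at day 0, 371 and 39 at day 6, and 0 and 0 at day 15, and 123 for the KAT6B KO effect difference. Fits of only the 2 groups gave 0 and 40, 1 and 1, and 0 and 2391 at the same days, and 419 for the double knockout at day 2. With no filter the KAT6B KO gave 48 at day 0 and 59 at day 6, and the double knockout 33 at day 6. Leaving out 1 library gave 80 to 1940 for the double knockout at day 0, 7 to 263 at day 2, 0 to 11 at day 6 and 0 to 102 at day 15, and 0 to 1946 for the KAT6B KO at day 15; the cause was not tested.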
